A study of Mus musculus with 8 samples.

Results

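The sodium pump and the small proteins that regulate it were followed in the mouse heart through 7 genes of the 33249 in the gene table, taken by name: Atp1b1, Atp1b3, Fxyd1, Fxyd3, Fxyd5, Fxyd6 and Slc4a3. The sodium pump (Na,K-ATPase) moves sodium out of the cell and potassium in at the cost of ATP, and in the heart it sets the sodium gradient that drives calcium out through the sodium-calcium exchanger. It consists of a catalytic alpha subunit, a beta subunit that carries the pump to the cell surface, and often a small single-span FXYD protein that tunes its activity. Fxyd1 encodes phospholemman, the main FXYD protein of cardiac muscle and a target of protein kinases A and C. Slc4a3 is not part of the pump: it encodes the anion exchanger AE3, which swaps chloride for bicarbonate and so lowers intracellular pH.

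Poly(A) RNA of mouse myocardium was sequenced in 8 libraries. Genotype (fl/fl or CKO) and surgery (Sham or MI) were crossed, which makes 4 groups with 2 libraries each. All mice carried floxed Piezo1 alleles. CKO mice also carried a tamoxifen-inducible Cre (Myh6-MerCreMer), which acts in cardiomyocytes, and fl/fl mice were littermates without this transgene. Tamoxifen was given to juvenile mice, with no statement on whether the littermates received it, and surgery was done in young adults. Myocardial infarction (MI) was made by permanently tying off the left anterior descending coronary artery, sham mice had the same operation without the ligation, and the MI libraries are labelled day 42. Sex, the part of the heart sampled, the age of the sham hearts at harvest and the number of mice in each library were not given in the sources used here.

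The deposited counts summed to 73821747 to 88117573 per library, and mitochondrially encoded genes took 43.1 to 46.4% of them in sham and 19.9 to 24.2% in MI libraries. Levels below are CPM (counts scaled to library size) after TMM normalization unless FPKM, which is also divided by gene length, is named. Defining cardiomyocyte markers were detected in every library, with summed CPM of 10 markers of 38667 to 44216 in sham and 24277 to 44038 in MI. Piezo1 after MI was 56.3 and 64.6 CPM where the label was CKO, against 53.5 and 64.8 where it was fl/fl. Esr1, part of which is carried by the inducible Cre, was 331, 707 and 402 CPM in those named fl/fl-MI 2, CKO-MI 1 and CKO-MI 2 and 5.52 to 8.36 CPM in the other 5, both CKO-Sham libraries and fl/fl-MI 1 (7.75) among them. These 2 genes therefore did not follow the genotype labels, which are used below as deposited. The replicates labelled fl/fl-MI also stood furthest apart, with 15.5% of tested genes over 2-fold apart against 2.35 to 4.98% in the other groups. Summed CPM of 5 atrial markers was 19857 in fl/fl-MI 2, 2547 to 4450 in the other MI libraries and 135 to 594 in sham. In those other MI libraries nearly all of the sum was Nppa (2520 to 4419 CPM), which was called higher after MI. Bmp10, Myl4, Myl7 and Sln were 3834, 2810, 1157 and 310 CPM in fl/fl-MI 2. They were 0.90 to 12.6 CPM in the other MI libraries.

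Fxyd genes are named after a short motif that stands just before the membrane span. The coding sequence of this stretch is shown for the 4 Fxyd members because it is what the family shares. The 60 bases are from GENCODE M21 on GRCm38, joined over exons where these are split, from the complete coding transcript with the highest mean FPKM of each gene. Capitals mark the 5 motif codons, which encode proline, phenylalanine, any residue, tyrosine and aspartate.
Fxyd1: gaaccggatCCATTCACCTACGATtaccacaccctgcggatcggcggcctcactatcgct
Fxyd3: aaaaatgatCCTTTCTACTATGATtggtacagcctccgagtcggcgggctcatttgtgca
Fxyd5: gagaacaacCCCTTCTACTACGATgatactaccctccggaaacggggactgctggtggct
Fxyd6: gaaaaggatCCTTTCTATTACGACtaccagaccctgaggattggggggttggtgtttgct
These stretches lie at chr7:31053437-31053914, chr7:31071329-31072096 and chr7:31035246-31035407 on the minus strand for Fxyd1, Fxyd3 and Fxyd5, and at chr9:45390651-45390814 on the plus strand for Fxyd6. The motif starts at codon 28 of 92 in Fxyd1, 29 of 88 in Fxyd3 and 27 of 93 in Fxyd6, but at codon 134 of 178 in Fxyd5, which encodes dysadherin and has a long extracellular part before the motif. Compared without gaps, Fxyd1 and Fxyd6 shared 41 of the 60 bases and Fxyd3 and Fxyd5 shared 32, the highest and the lowest of the 6 pairs. Fxyd1, Fxyd3 and Fxyd5 are neighbours on chromosome 7 and are transcribed in the same direction.

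The first question was how the 7 genes differed between infarcted and sham hearts. Atp1b1 rose and Slc4a3 fell by about 2-fold with no overlap between MI and sham libraries, and Fxyd6 was called higher with a wide spread. Atp1b3, Fxyd1 and Fxyd5 did not pass the test. Fxyd3 was too low to be tested. In all, 3 of the 6 tested members passed edgeR's quasi-likelihood test at a Benjamini-Hochberg adjusted p under 0.05, 2 higher (22.0% of all 14028 tested genes were called higher) and 1 lower (18.3% were called lower). Called genes made up 40.4% of all tested genes, so the members' share was close to this background. The median log2 fold change of the 6 was 0.32, beside 0.03 over all tested genes. A change in bulk tissue can come from the number of cells of a type or from the RNA per cell, and these cannot be told apart here.

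**Figure D1:**
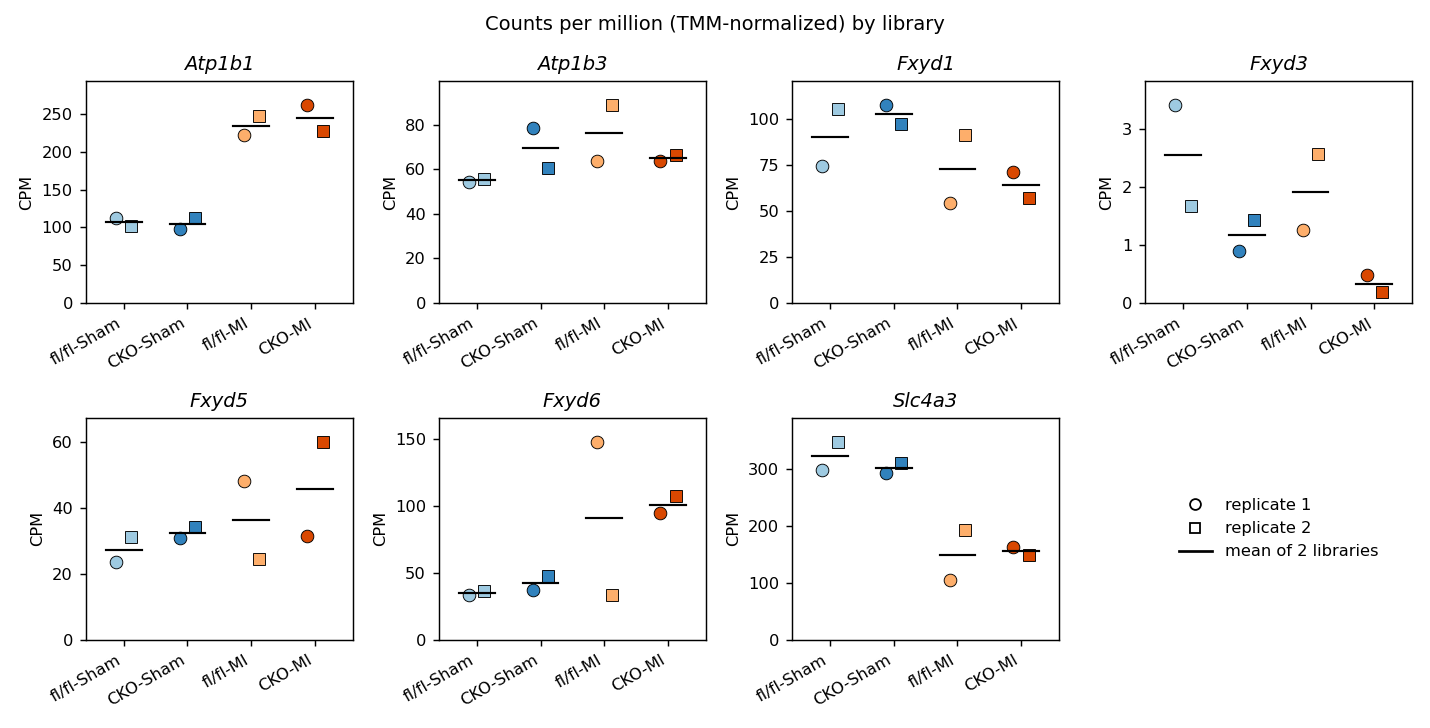
CPM (y axis, linear from 0, TMM-normalized) of the 7 genes in each library, by group (x axis), with circles for replicate 1, squares for replicate 2 and a line at the mean of the 2 libraries. The 4 MI libraries lie at 222 to 262 for Atp1b1, above all sham libraries, and at 105 to 193 for Slc4a3, below all sham libraries, while Fxyd6 in fl/fl-MI 2 lies at 33.2, at the sham level.

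Atp1b1 (ENSMUSG00000026576, chromosome 1 of GRCm38 from 164437109 to 164458355, minus strand) encodes the beta1 subunit, the main beta subunit of the cardiac pump. It was 112 and 102 CPM in fl/fl-Sham, 97.4 and 113 in CKO-Sham, 222 and 248 in fl/fl-MI, and 262 and 228 in CKO-MI. Every MI library was above every sham library, a pattern that 20.9% of tested genes showed in this direction. The log2 fold change for MI against sham was 1.18 (SE 0.11, 95% interval 0.91 to 1.45, adjusted p = 0.000789, edgeR), or 2.26-fold. Within genotypes it was 1.13 (adjusted p = 0.00735, 18.5% of genes called) in fl/fl and 1.22 (adjusted p = 0.00564, 24.7% called) in CKO. Over both genotypes it was called without each library in turn, at 1.10 to 1.23. The call within fl/fl was lost without either fl/fl-Sham library (adjusted p = 0.0735 and 0.0918) and that within CKO without CKO-Sham 1 (adjusted p = 0.0686). The gene overlaps Nme7 on the other strand, and since the strand setting was not given, reads of both genes may not have been kept apart. One transcript, ENSMUST00000027863 with 6 exons, took 98.7 to 99.7% of its transcript FPKM in all libraries.

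Atp1b3 (ENSMUSG00000032412, chromosome 9, 96332655 to 96364442, minus strand) encodes the beta3 subunit, which is made in many tissues. It was 54.3 and 55.8 CPM in fl/fl-Sham, 78.7 and 60.5 in CKO-Sham, 63.8 and 88.9 in fl/fl-MI, and 63.6 and 66.6 in CKO-MI. The groups overlapped, and the highest value of the MI libraries stood alone in fl/fl-MI 2. The log2 fold change was 0.19 (SE 0.14, adjusted p = 0.322), made up of 0.47 in fl/fl and -0.10 in CKO. The difference between these genotypes was -0.57 (SE 0.28, adjusted p = 0.619 for the interaction). These values moved with single libraries. The value over both genotypes was 0.06 without fl/fl-MI 2, 0.10 without CKO-Sham 2 and 0.29 without CKO-Sham 1, and that in fl/fl was 0.21 without fl/fl-MI 2 and 0.66 without fl/fl-MI 1 (called, adjusted p = 0.0279). In CKO it was 0.11 without CKO-Sham 1 and -0.27 without CKO-Sham 2, and the interaction was -0.31 without fl/fl-MI 2 and -0.77 without fl/fl-MI 1. With library size alone Atp1b3 was called higher over both genotypes (0.74, adjusted p = 0.0037, edgeR). The median of all tested genes was then 0.59 and 7319 of 14028 were called higher. Atp1b3 was 0.14 above that median. FPKM was higher in every MI than in every sham library (28.9 to 40.4 against 17.5 to 26.5), where no TMM factor is applied. MI and sham therefore separated for Atp1b3 on one scale and overlapped on the other. By limma on log2(FPKM + 1), 7027 of the 14028 tested genes were called higher.

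The ratio of both beta subunits within a library does not depend on library scaling. Atp1b1 was 0.96 to 1.60 times Atp1b3 in FPKM in sham libraries and 2.16 to 3.20 times in MI libraries, without overlap. Atp1b2, the beta subunit best known from brain and muscle, was lower still, and Atp1b1 was 4.09 to 5.49 times Atp1b2 in sham and 19.7 to 25.2 times in MI. In both ratios all MI libraries were above all sham libraries. Of single genes, 40.4% of those tested had no overlap between MI and sham in CPM, Atp1b1 among them. The share of gene pairs whose ratio separates in this way was not computed.

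**Figure D2:**
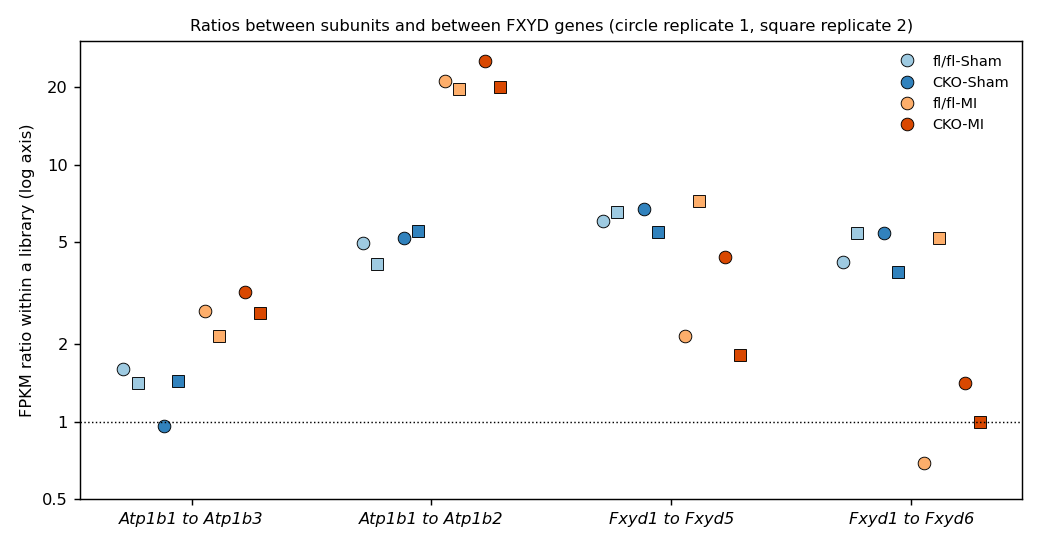
Ratio of FPKM values of 2 genes within each library (y axis, log scale) for 4 gene pairs (x axis), coloured by group, with circles for replicate 1 and squares for replicate 2. Both ratios between beta subunits are higher in all MI than in all sham libraries, whereas Fxyd1 to Fxyd5 and Fxyd1 to Fxyd6 in fl/fl-MI 2 (7.21 and 5.17) stay near the sham values and are lower in the other 3 MI libraries.

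Fxyd1 (ENSMUSG00000036570, chromosome 7, 31051678 to 31055708, minus strand) had the highest mean FPKM of the 7 genes in sham hearts. It was 74.6 and 105 CPM in fl/fl-Sham, 108 and 97.2 in CKO-Sham, 54.3 and 91.4 in fl/fl-MI, and 71.2 and 57.0 in CKO-MI. Of the MI libraries 3 were below all sham libraries, and fl/fl-MI 2 lay within the sham range. The log2 fold change was -0.49 (SE 0.20, 95% interval -0.96 to -0.02, adjusted p = 0.0893), with -0.31 in fl/fl and -0.68 in CKO, and it was 0.04 with library size alone. In CKO it was called without either fl/fl-MI library (adjusted p = 0.0286 and 0.0265), and in fl/fl it was -0.73 without fl/fl-MI 2. Over both genotypes it was called lower without fl/fl-MI 2 (-0.70, adjusted p = 0.00778) and with the filter raised to a mean FPKM of 5 (-0.57, adjusted p = 0.0406), but called higher on TPM (0.62, adjusted p = 0.0128). The median of all tested genes was 0.59 with library size alone and 0.92 on TPM. Relative to that median Fxyd1 was -0.52 in the counts, -0.55 with library size alone and -0.30 on TPM. Of its 17 transcripts, ENSMUST00000108110 took 28.7 to 35.7% and ENSMUST00000206305 took 26.3 to 35.6% of transcript FPKM, with overlapping sham and MI ranges for both.

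Fxyd5 (ENSMUSG00000009687, chromosome 7, 31032722 to 31042481, minus strand) encodes dysadherin, known from epithelial and tumour cells for weakening cell adhesion. It was 23.7 and 31.1 CPM in fl/fl-Sham, 30.8 and 34.2 in CKO-Sham, 48.2 and 24.4 in fl/fl-MI, and 31.4 and 60.1 in CKO-MI. The libraries fl/fl-MI 1 and CKO-MI 2 were above all sham libraries and the other 2 MI libraries were within the sham range. The log2 fold change was 0.45 (SE 0.28, adjusted p = 0.231), and it depended on the MI libraries. It was 0.66 when fl/fl-MI 2 was left out (adjusted p = 0.0418), 0.14 without fl/fl-MI 1 and 0.16 without CKO-MI 2 (adjusted p = 0.622 and 0.661). With library size alone it was 1.04 (adjusted p = 0.0286, edgeR). Relative to the median of all tested genes it was 0.42 in the counts and 0.45 with library size alone, where that median was 0.59. Fxyd1 to Fxyd5 in FPKM was 5.46 to 6.70 in sham and 2.16, 7.21, 4.35 and 1.82 in fl/fl-MI 1, fl/fl-MI 2, CKO-MI 1 and CKO-MI 2.

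Fxyd6 (ENSMUSG00000066705, chromosome 9, 45370185 to 45396159, plus strand) encodes phosphohippolin, a pump regulator best known from brain. It was 33.6 and 36.7 CPM in fl/fl-Sham, 37.3 and 47.9 in CKO-Sham, 148 and 33.2 in fl/fl-MI, and 94.5 and 107 in CKO-MI. In 3 MI libraries it was above all sham libraries, and fl/fl-MI 2 was below all of them. The log2 fold change for MI against sham was 1.31 (SE 0.41, 95% interval 0.33 to 2.28, adjusted p = 0.0412), or 2.47-fold. Within genotypes it was 1.37 in fl/fl (adjusted p = 0.141) and 1.24 in CKO (adjusted p = 0.157), neither of which passed. The size of the value rested on the 2 fl/fl-MI libraries. Without fl/fl-MI 1 the log2 fold change was 0.56 (adjusted p = 0.00618), and without fl/fl-MI 2 it was 1.66 (adjusted p = 0.000106). Leaving out any of the other 6 libraries ended the call, with adjusted p of 0.0878 to 0.135. Both main transcripts, ENSMUST00000217381 and ENSMUST00000085939, with 8 exons each, took 54.5 to 66.0% and 33.5 to 45.5% of its transcript FPKM, with no separation of MI from sham.

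Fxyd6 was set beside the summed CPM of 9 fibroblast markers. This sum was 1495 to 1667 in sham libraries and 6692, 2463, 3423 and 5649 in fl/fl-MI 1, fl/fl-MI 2, CKO-MI 1 and CKO-MI 2. Of the 9 markers 8 were called higher after MI (22.0% of all tested genes were). Of 5 cartilage markers 3 were tested and 2 were called higher, and their sum was 873, 68.0, 423 and 465 CPM in the same order against 13.8 to 35.9 in sham. Nearly all of it came from Comp, a matrix protein that other connective tissue also makes (847, 62.1, 416 and 458 CPM), while Acan and Col2a1 were under the filter and Cnmd was -0.58 on the log2 scale. The order of the MI libraries in Fxyd6, fl/fl-MI 1, CKO-MI 2, CKO-MI 1 and fl/fl-MI 2 from high to low, was the same as in both sums. Fxyd5 was also highest in CKO-MI 2 and fl/fl-MI 1 and lowest in fl/fl-MI 2. In fl/fl-MI 2, however, both sums were above all sham libraries while Fxyd6 was below all of them. The part of these cell types in Fxyd6 and Fxyd5 was not tested.

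**Figure D3:**
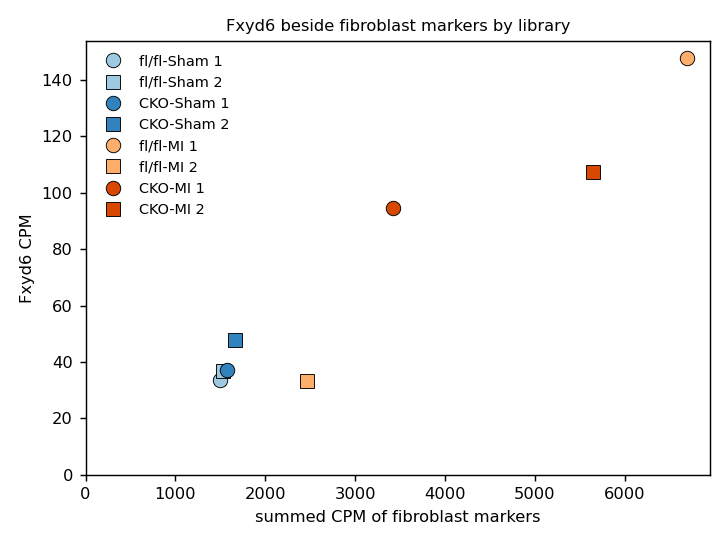
Fxyd6 CPM (y axis) against the summed CPM of 9 fibroblast markers (x axis), 1 point per library, coloured by group with circles for replicate 1 and squares for replicate 2. Libraries fl/fl-MI 1, CKO-MI 2 and CKO-MI 1 lie at 148, 107 and 94.5 CPM of Fxyd6 with sums of 6692, 5649 and 3423. Library fl/fl-MI 2 lies just below the sham libraries in Fxyd6 at 33.2, with a sum of 2463, above all sham sums (1495 to 1667).

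Fxyd3 (ENSMUSG00000057092, chromosome 7, 31068172 to 31076704, minus strand) encodes a pump regulator (Mat-8) known from epithelia. It was the lowest of the members, with 18 to 213 deposited counts per library and a mean FPKM of 0.27. It was 3.41 and 1.68 CPM in fl/fl-Sham, 0.90 and 1.43 in CKO-Sham, 1.27 and 2.57 in fl/fl-MI, and 0.48 and 0.19 in CKO-MI. MI and sham libraries overlapped. Its mean FPKM was under the filter of 0.5. Fitted without a filter, its log2 fold change for MI against sham was -1.04 (SE 0.41, adjusted p = 0.113). Summed CPM of 10 mesothelial and epithelial markers was 77.0 to 113 in sham libraries. It was 144, 261, 71.2 and 115 in fl/fl-MI 1, fl/fl-MI 2, CKO-MI 1 and CKO-MI 2. Fxyd3 was likewise highest of the MI libraries in fl/fl-MI 2, but the orders differed in other libraries. In fl/fl-Sham 1 the sum was the lowest of the sham libraries (77.0) and Fxyd3 the highest of all 8 (3.41). In CKO-MI 2 the sum was above that of CKO-MI 1 and Fxyd3 was below. Of the 10 markers 5 were called higher after MI and 1, Epcam, lower (22.0% and 18.3% of all tested genes were). The part of these cells in Fxyd3 was not tested. The gene overlaps Lgi4 on the other strand, and whether reads were counted by strand was not given, so reads of the 2 genes may not have been kept apart.

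Slc4a3 (ENSMUSG00000006576, chromosome 1, 75546266 to 75562172, plus strand) was the most abundant of the 7 genes in CPM in sham hearts. It was 299 and 348 CPM in fl/fl-Sham, 293 and 311 in CKO-Sham, 105 and 193 in fl/fl-MI, and 162 and 150 in CKO-MI. All MI libraries were below all sham libraries, as were 19.5% of tested genes (40.4% of tested genes had no overlap in either direction). Its log2 fold change was -1.04 (SE 0.20, 95% interval -1.50 to -0.57, adjusted p = 0.00692), or 2.05-fold lower, but -0.50 with library size alone and 0.066 on TPM, where the median of all tested genes moved to 0.92. Relative to that median Slc4a3 was -1.07 in the counts and -0.85 on TPM. Within genotypes it was -1.12 in fl/fl (adjusted p = 0.0359) and -0.95 in CKO (adjusted p = 0.0461), and each of these calls was lost without any 1 of the 6 libraries other than the fl/fl-MI pair (adjusted p = 0.0556 to 0.193 in fl/fl and 0.0866 to 0.174 in CKO). Over both genotypes Slc4a3 was -1.29 to -0.87 and was called without each library in turn.

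The deposited transcript table splits Slc4a3 over 11 transcripts, of which 4 had at least 5% of its transcript FPKM on average. AE3 is known in a longer form and in a shorter cardiac form that starts from a promoter inside the gene. The longest transcript, ENSMUST00000124341 (23 exons, starting at 75546266), was 153, 177, 171 and 177 CPM in the sham libraries and 55.0, 101, 96.2 and 101 in the MI libraries, in the order fl/fl 1 and 2 and CKO 1 and 2. ENSMUST00000132612, annotated as a retained intron with 21 exons, was 104 to 150 CPM in sham and 29.5 to 66.8 in MI. Both were lower in all MI than in all sham libraries.

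The short transcript ENSMUST00000154101 (4 exons, 921 bases, starting inside the gene at 75549599) did not follow them. It was 5.66, 6.01, 4.56 and 5.03 CPM in the sham libraries and 6.45, 13.0, 13.5 and 12.3 in the MI libraries, in the same order. All MI libraries were above all sham libraries, and its share of Slc4a3 transcript FPKM was 9.06 to 11.1% in sham and 26.6 to 35.4% in MI. The share of the longest transcript was 37.2 to 43.6% in sham and 29.1 to 36.4% in MI. ENSMUST00000145516, a retained intron of 706 bases near the 5′ end, also had a higher share in all MI (9.87 to 15.8%) than in all sham libraries (8.33 to 9.64%), but its CPM overlapped (2.89 to 3.81 in MI and 3.27 to 4.51 in sham). These values come from the authors' assignment of reads to transcripts that share exons, and they are a description with no test. The share of all transcripts with no overlap between MI and sham was not computed. As annotated, the short transcript ends at 75551382 and the gene at 75562172, so it covers only part of the gene. Whether its reads come from the cardiac form was not tested.

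**Figure D4:**
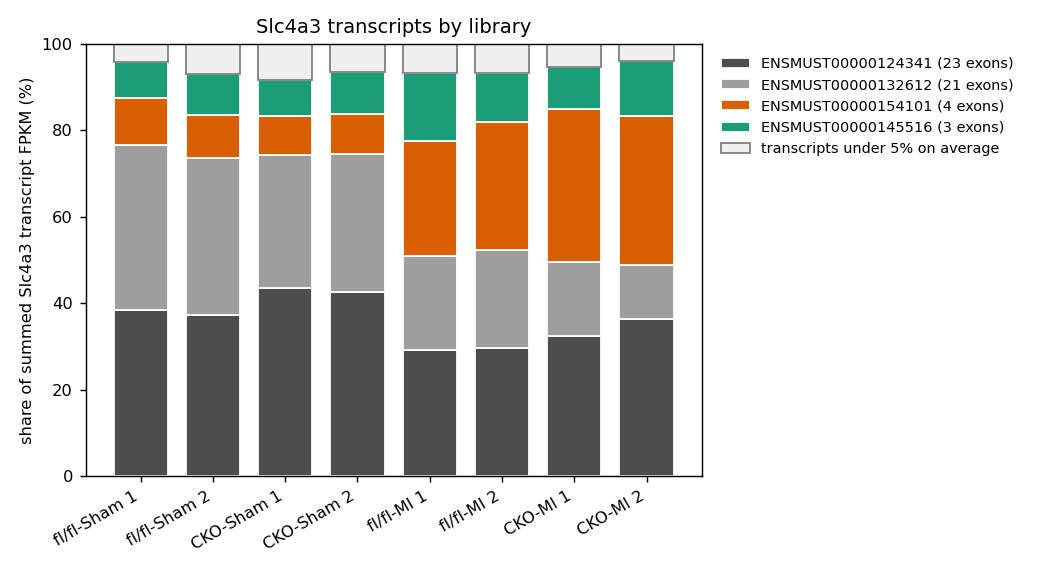
Share of summed Slc4a3 transcript FPKM (y axis, percent) taken by each transcript in each of the 8 libraries (x axis), stacked from 0 to 100, with transcripts under 5% on average in the lightest grey. The 4-exon transcript takes 9.06 to 11.1% in sham and 26.6 to 35.4% in MI, and the shares of the 23-exon and 21-exon transcripts are lower in all MI than in all sham libraries.

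Levels of the 7 genes were put in order by FPKM, which is per length. In sham hearts the mean FPKM over 4 libraries was 35.0 ± 6.30 (SD, n = 4) for Fxyd1, 29.0 ± 3.02 for Slc4a3, 27.3 ± 1.42 for Atp1b1 and 20.8 ± 3.92 for Atp1b3. Each of these neighbours overlapped the next in its range. Fxyd6 (7.52 ± 1.17) and Fxyd5 (5.67 ± 0.911) followed, overlapping each other but below Atp1b3, and Fxyd3 (0.293 ± 0.169) was last. In MI hearts Atp1b1 came first at 91.4 ± 2.76, above the range of every other member. Fxyd1 (36.3 ± 6.19), Atp1b3 (34.7 ± 4.71), Fxyd6 (28.2 ± 15.6), Slc4a3 (20.6 ± 3.73) and Fxyd5 (11.8 ± 5.55) came next, each overlapping its neighbour. Fxyd3 was last again at 0.257 ± 0.235, below all of them.

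The second question was whether the genotype labels separated these genes. After MI, none of the 6 tested members differed between CKO-MI and fl/fl-MI at an adjusted p under 0.05 by edgeR (0.0% of all genes were called), and none did at an unadjusted p under 0.05 (8.31% of all genes). Atp1b1 had a log2 fold change of 0.06 (95% interval -0.31 to 0.43) and Slc4a3 of 0.07 (-0.58 to 0.72). For Atp1b3 it was -0.23 (-0.70 to 0.24), for Fxyd1 -0.18 (-0.85 to 0.48), for Fxyd5 0.34 (-0.59 to 1.26) and for Fxyd6 0.15 (-1.20 to 1.51). The interval of Fxyd6 leaves room for a change of more than 2-fold either way. DESeq2 called 207 genes in this comparison, none of them a member.

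The result for Fxyd6 turned on the fl/fl-MI libraries. Without fl/fl-MI 1 its log2 fold change for CKO-MI against fl/fl-MI was 1.62 (adjusted p = 0.00436), with 1674 genes called in all, and without fl/fl-MI 2 it was -0.55 (adjusted p = 0.307), with 27 genes called. The fl/fl-MI group then rests on a single library, whose spread is taken to be that of the other groups. Fxyd3, fitted without a filter, was -2.49 (SE 0.61, unadjusted p = 0.00136, adjusted p = 0.305, edgeR), with both CKO-MI libraries below both fl/fl-MI libraries at 18 to 213 counts. It thus passed an unadjusted p under 0.05 but not the adjusted one. In the filtered fit 8.31% of genes passed unadjusted.

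In sham hearts none of the 6 members differed between CKO-Sham and fl/fl-Sham at an adjusted p under 0.05 (0.00713% of all genes were called, which is 1 gene) or at an unadjusted p under 0.05 (3.89%). The values ranged from -0.10 for Slc4a3 to 0.34 for Atp1b3 (95% interval -0.13 to 0.81). The change with MI did not differ between genotypes for any of the 6 in the interaction term at an adjusted p under 0.05 (0.0% of all genes) or at an unadjusted p under 0.05 (8.49%). Without fl/fl-MI 1 the interaction of Fxyd6 was 1.34 (adjusted p = 0.026) where it was -0.12 with all libraries and -0.83 without fl/fl-MI 2. DESeq2 called no member in either. Atp1b3 had the largest interaction of the 6, given above.

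**Figure D5:**
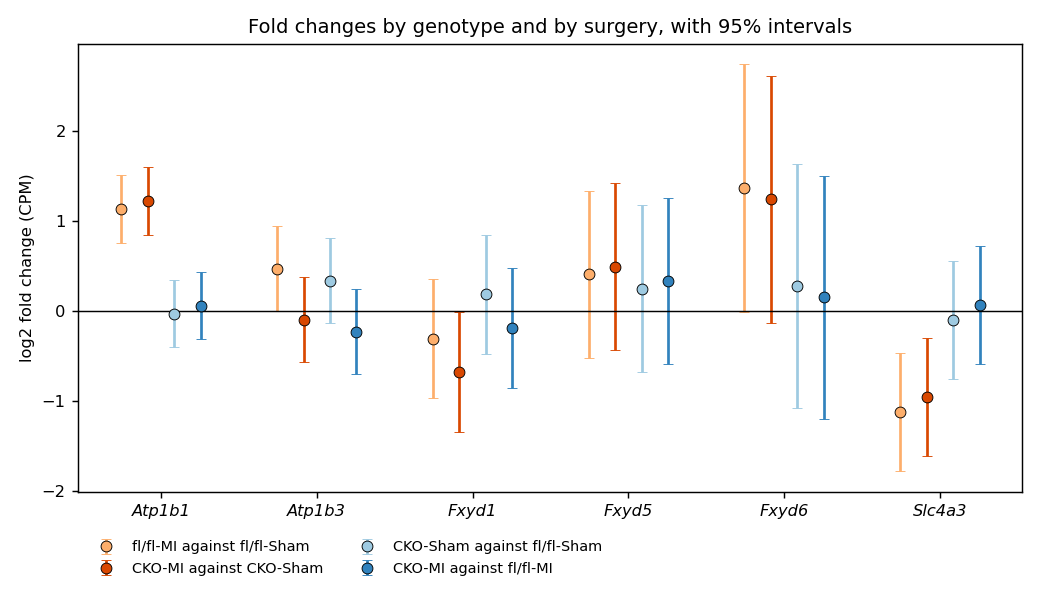
Log2 fold changes (y axis) of the 6 tested genes (x axis) for MI against sham within each genotype and for CKO against fl/fl within each surgery, from edgeR with all 8 libraries in the fit. Bars are 95% intervals and the horizontal line is 0. Atp1b1 (1.13 and 1.22) and Slc4a3 (-1.12 and -0.95, though not on TPM) lie away from 0 for MI in both genotypes, and all 12 intervals for genotype include 0.

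The members were then set beside 25 other genes of the pump and of sodium handling, of which 18 were tested. After MI 7 were called higher and 4 lower, where 22.0% and 18.3% of all 14028 tested genes were called higher and lower. The median log2 fold change was -0.04 over the 18, beside 0.03 over all tested genes. Atp1b2, the third beta subunit, was called lower at a log2 fold change of -0.94, and so was Fxyd7 at -0.99. Both were positive on TPM (0.17 and 0.03), where the median of all tested genes was 0.92. Relative to that median they were -0.98 and -1.02 in the counts and -0.75 and -0.89 on TPM. Atp1b2 was also called lower with library size alone (-0.39) and on both FPKM scales (-0.32 and -0.37), and Fxyd7 was not. Atp1b2 was 24.9 to 33.0 CPM in sham and 13.8 to 16.7 in MI libraries, without overlap. Fxyd7 was low, at 0.48 and 0.46 CPM in fl/fl-Sham and 1.35 and 1.88 in CKO-Sham. After MI Fxyd7 was 0.51 and 0.45 CPM in fl/fl and 0.47 and 0.33 in CKO. Its MI and sham libraries overlapped, and only the CKO-Sham libraries stood apart.

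Among partners of the pump, Slc8a1, the sodium-calcium exchanger, was called higher at a log2 fold change of 1.56. Prkaca and Prkca, catalytic kinases of the families that phosphorylate phospholemman, were called higher at 1.02 and 1.17. Nkain1 and Nkain4, membrane proteins that bind the beta1 subunit, were called higher at 1.83 and 2.96, from low levels. Nkain1 was 0.64 to 1.06 CPM in sham and 1.61 to 4.09 in MI libraries. Nkain4 was 0.58 to 1.02 CPM in sham, and 6.45, 12.3, 1.69 and 5.65 in fl/fl-MI 1, fl/fl-MI 2, CKO-MI 1 and CKO-MI 2. The mesothelial and epithelial marker sum had the same order of MI libraries, but in CKO-MI 1 that sum was below all sham libraries. The part of these cells in Nkain4 was not tested. Slc12a2, the sodium-potassium-chloride cotransporter, and Cav3, a caveolin of muscle, were called lower at -0.53 and -0.52. They were positive with library size alone (0.03 and 0.02), on both FPKM scales and on TPM. Relative to the median of all tested genes they were -0.57 and -0.56 in the counts. With library size alone this was -0.56 and -0.57, and on TPM -0.42 and -0.33. With library size alone the list had 10 higher and 1 lower, beside 7319 higher and 802 lower of all 14028 tested genes. The 7 higher calls were as many without each library in turn, but only 1 lower call was left without fl/fl-Sham 1, fl/fl-Sham 2, CKO-Sham 1, CKO-Sham 2 or CKO-MI 2. Without fl/fl-MI 2 or CKO-MI 1 there were 5 lower. With no filter 1 gene was called lower.

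Slc4a3 was set beside 19 acid-base transport genes, of which 14 were tested and 4 were called higher and 3 lower after MI. Of all 14028 tested genes 22.0% were called higher and 18.3% lower. The median log2 fold change was 0.10 over the 14, beside 0.03 over all tested genes. The lactate and proton carriers Slc16a1 and Slc16a3 were called higher at log2 fold changes of 1.46 and 1.82, and the sodium-bicarbonate cotransporters Slc4a4 and Slc4a7 at 0.86 and 0.43. Lower were Car4, a membrane carbonic anhydrase, at -3.34, Slc26a6, another chloride-bicarbonate exchanger, at -0.76, and Car2, a cytosolic carbonic anhydrase, at -0.70. On TPM Slc26a6 and Car2 were positive (0.24 and 0.34) and Car4 was still -2.11, where the median of all tested genes was 0.92. Relative to that median Slc26a6 and Car2 were -0.80 and -0.74 in the counts and -0.68 and -0.58 on TPM. The nearest relative of Slc4a3 that was tested, Slc4a2, had -0.27 (adjusted p = 0.145). The endothelial marker sum was 1470 to 1586 CPM in sham and 477 to 747 in MI. Of the 6 markers 6 were called lower (18.3% of all tested genes were). The part of these cells in Car4 and in the members was not tested. Leaving out fl/fl-Sham 1, CKO-Sham 1, CKO-Sham 2 or CKO-MI 1 left 4 genes of this list called, and leaving out fl/fl-MI 2 gave 5 higher and 5 lower. No gene of either list was called in either genotype comparison or in the interaction.

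Finally, the tested genes whose log2 CPM followed each member most closely over the 8 libraries were found by Pearson's r, given as a description since the libraries share surgery and scaling. They were Ank3 (0.997) and Rrn3 (0.997) for Atp1b1, Egflam (0.993) and 8430422M14Rik (0.991) for Slc4a3, and Uxt (0.993) and Reg4 (0.984) for Fxyd1. For Fxyd6 they were Erlin1 (0.995) and Col8a1 (0.991), for Fxyd5 Map3k14 (0.979) and Cd300lb (0.957), for Atp1b3 Ift57 (0.963) and Fam151b (0.930), and for Fxyd3 Slc43a3 (0.938) and Serhl (0.931). Among the members themselves, Fxyd5 and Fxyd6 had r = 0.82, and Fxyd6 and Fxyd1 had r = -0.85. Atp1b1 and Slc4a3 had r = -0.87 over all libraries but 0.73 over the 4 MI libraries alone.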

How the data were processed

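The authors deposited, per gene and per transcript, whole-number counts and FPKM in each library, and they had scaled the FPKM to length and library size. Submitters' processing notes name cutadapt 1.9 and FastQC, and the aligner, counter, strand setting and annotation release were not given in the sources used here. Counts of 4, 8 and 12 were each more frequent than the values beside them, and what 1 count stands for was not given. Gene identifiers were matched to GENCODE M21 on GRCm38 (99.7% found).

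The 14028 of 33249 genes whose mean FPKM reached 0.5 were tested on the counts with edgeR 4.0.16 (R 4.3.3), TMM normalization, all 8 libraries and a mean per group, with Benjamini-Hochberg adjustment over all tested genes. Each standard error is the absolute log2 fold change over the root of F. On simulated data for MI against sham with 14028 genes, the test recovered 5, 23, 46 and 47 of 50 genes changed 1.5-, 2-, 3- and 4-fold, with 6 wrong calls. No other genes were changed in the simulation, whereas 40.4% of tested genes were called in the data. The simulated spread of a gene was also the same in every group. The recovery in the simulation is therefore not that of the data. Nothing says that libraries are separate animals, so p-values measure only the spread between these samples, which may be technical. Of the members, Fxyd3 alone had few counts, which limits its precision.

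The members, gene lists and tests were chosen with earlier results of these data known. Genes named are the members, list genes called in MI against sham or above all members in mean FPKM, and the 2 closest genes to each member. Piezo1, Esr1 and some cell type markers are named as well. Results for some list genes are not reported here. Slc4a2 and the ratios other than Atp1b1 to Atp1b3 and Fxyd1 to Fxyd5 were chosen after their values were seen. Of the other marker lists, summed CPM in sham and MI libraries was 1206 to 1354 and 328 to 645 for mural cells, 454 to 505 and 439 to 1130 for macrophages, 3.37 to 7.09 and 3.46 to 6.53 for lymphocytes, and 43.0 to 56.7 and 20.1 to 56.0 for Schwann cells. Alternatives were other normalizations and filters, DESeq2 1.42.0, limma 3.58.1 on log2(FPKM + 1), log2(FPKM + 0.1) and log2(TPM + 1), counts divided by 4, the replicate number as a block, the 4 compared libraries alone, and each library left out.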

Additional observations from a re-analysis of the deposited data

Results flagged for a closer look

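Atp1b3 in the library labelled fl/fl-MI 2 stood apart from the other MI libraries. It was 88.9 CPM there and 63.6 to 66.6 CPM in the other 3, a gap of 0.882 of the range of the 4 libraries, over Dixon's 95% critical value for 4 samples. Sham and MI libraries were looked at in this way for each of the 7 genes, so 1 of 14 groups was marked, and chance marks about 1 in 20.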

How the results depend on the processing

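Atp1b1 kept its call for MI against sham under all alternatives run (log2 fold change 1.10 to 2.29), and Slc4a3 under all but TPM. On log2(TPM + 1) with limma, where the median of all genes was 0.92, MI against sham was 0.066 for Slc4a3 and 0.62 for Fxyd1, fl/fl-MI against fl/fl-Sham was 0.79 for Fxyd1, and CKO-MI against CKO-Sham was 1.03 for Atp1b3 and 0.18 for Slc4a3. With library size alone this median was 0.59, on log2(FPKM + 1) 0.41 and on log2(FPKM + 0.1) 0.56. Fxyd6 lost its call with a mean FPKM of at least 5 (adjusted p = 0.052), where Fxyd1 was called lower. Within genotypes, Slc4a3 lost its call with library size alone, on both FPKM scales and without 6 of the 8 libraries in each genotype. Left-out libraries aside, 4 alternatives ended its call in fl/fl. In CKO 5 ended it, and on TPM the sign also changed. The cause was not tested.

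Members called for MI against sham were 5 with library size alone (4 higher and 1 lower), on log2(FPKM + 0.1) and on TPM (all higher), and 2 to 5 with a library left out, 5 without fl/fl-MI 2. Genes called for MI against sham were 5663, of which 2082 also changed 2-fold, 2244 at an unadjusted p under 0.05 and 2-fold, 2906 with a mean FPKM of at least 5, 8121 with library size alone (7319 higher), 7864 and 7954 on the FPKM scales, 11033 on TPM (10755 higher), and 3235 to 7108 with a library left out. For CKO-MI against fl/fl-MI, the interaction and CKO-Sham against fl/fl-Sham, DESeq2 called 207, 131 and 34 genes, and 450, 575 and 125 passed an unadjusted p under 0.05 with 2-fold change. Without a filter the interaction had 1 gene and the sham comparison 4. The sham comparison had 165 genes with its 4 libraries alone, 2 on log2(FPKM + 1), and 0 with the replicate block, a mean FPKM of at least 5, log2(FPKM + 0.1) or TPM. With a library left out these comparisons had 0 to 1674, 0 to 751 and 0 to 3 genes and 0 to 1, 0 to 1 and 0 to 0 members. The interaction of Fxyd6 ran from -0.83 without fl/fl-MI 2 to 1.34 without fl/fl-MI 1.

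Replicate numbers showed no sign of pairing the samples, as deviations of same-numbered libraries correlated at -0.17 to 0.06. With 2 libraries per group these values cannot exclude pairing. With the replicate number as a block, 5085 genes and 2 members were called for MI against sham, and Fxyd6 was no longer called (adjusted p = 0.0738). With the CKO-MI numbers crossed, chosen after seeing the data, CKO-MI against fl/fl-MI had 0 genes called.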
